A study of Mus musculus with 2 samples.

Results

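The genes described here are 10 that handle lipid at the macrophage surface, in the lipid droplet or in membranes: Cd36, Lpl, Fabp5, Mfsd2a, Atp8b4, Pla2g7, Plin2, Abca1, Abcg1 and Apoe. They were chosen by their function and by their measured counts and log2 ratios in these same libraries. All 10 symbols were found in a deposited table of 18987 genes, each on 1 row. The study sequenced RNA from RAW264.7, a macrophage-like mouse cell line that becomes osteoclasts under RANKL, the main osteoclast-forming cytokine. One library came from cells with an shRNA against Cpeb4 and the other from cells with a control shRNA. Both cultures had been seeded at 7500 cells per cm2, had received 100 ng/ml RANKL 24 h later and, per the series title, were collected on day 3, so neither library shows cells without RANKL. Each group had 1 library, and the labels name no clone, culture or shRNA sequence. Every difference below therefore compares these libraries and has no replicate check, no test and no p-value.

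Macrophages and osteoclasts take up lipid as lipoprotein particles or as free fatty acids, keep it as esters in lipid droplets and release cholesterol to apolipoproteins. CD36 is a scavenger receptor and fatty acid transporter, lipoprotein lipase frees fatty acids from triglyceride-rich particles, and fatty acid binding proteins carry them inside the cell. Perilipins coat the droplet. ABCA1 and ABCG1 export cholesterol, apolipoprotein E accepts it, and the genes of ABCA1, ABCG1 and apolipoprotein E are known targets of the liver X receptors (LXR), which act as partners of the retinoid X receptor. CPEB4 binds the cytoplasmic polyadenylation element (CPE), a U-rich motif in the 3′ untranslated region (UTR), the stretch of an mRNA after its stop codon.

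The libraries held 119350322 counts with the Cpeb4 shRNA and 79399680 with the control shRNA. Levels are given as CPM, counts per 1000000 of a library size scaled by the trimmed mean of M values (TMM), and each ratio is the log2 of CPM with the Cpeb4 shRNA over CPM with the control shRNA. Brackets hold the 95% counting interval, which covers counting error only. The targeted gene had 13491 counts (104 CPM) in the Cpeb4 shRNA library and 25270 counts (345 CPM) in the control library, a log2 ratio of -1.73. Of 10 macrophage markers 9 were listed and 7 passed a filter of a mean of at least 1 CPM, of which 0 were at least 2-fold higher, 1 was lower (Cd68, -1.04) and 6 were within 2-fold, with a median log2 ratio of -0.38. Lyz2 was the highest, just within 2-fold, with 11.4 CPM against 5.71 CPM. Below the filter the defining gene Adgre1 had 101 counts against 12 in the control library, and Fcgr1 had 19 counts against 88. All 10 osteoclast markers passed the filter. Their summed level was 11299 CPM in the Cpeb4 shRNA library and 49814 CPM in the control library. Ctsk (24234 CPM) and Acp5 (15715 CPM) were the largest parts of the control sum. Of the 10 markers 9 were at least 2-fold lower with the Cpeb4 shRNA, and Nfatc1 was within 2-fold (-0.05). Of 9 adipocyte markers 1 was listed (Slc2a4, 250 against 336 counts, -1.25), so the defining genes Adipoq, Plin1, Cidec and Fabp4 are not analysed here. The part of the shift in osteoclast markers in the lipid gene differences was not tested. In these bulk libraries fewer cells of a type and less RNA per cell cannot be told apart.

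The 10 genes did not move one way. Cd36, Mfsd2a and Atp8b4 were at least 2-fold higher in the Cpeb4 shRNA library, Apoe, Abca1 and Pla2g7 were at least 2-fold lower, and Lpl, Abcg1, Fabp5 and Plin2 lay within 2-fold. Over the 12086 genes that passed the filter, 14.6% reached 2-fold on the higher side and 11.8% on the lower side. Since these same ratios chose the genes, nothing is read from 3 of 10 being higher and 3 of 10 lower. Their median log2 ratio was -0.34, beside 0.05 over all genes past the filter. All 10 passed the filter, but Mfsd2a, Atp8b4 and Pla2g7 passed it through 1 library alone and so had to differ. That also holds for 7 other genes of the lipid lists named below: Cav1, Cpt1b, Osbpl1a and Stab1, which were higher, and Apoc2, Mfsd2b and Pla2g2d, which were lower. The balance over all genes depended on scaling: 1765 were higher and 1421 lower with TMM, 2510 and 1027 with total-count scaling, which moves every log2 ratio by 0.23, and 1057 and 2635 with scaling to 20 reference genes, which moves every log2 ratio by -0.41. Ratios smaller than such a shift can change sign with the scaling.

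**Figure D1:**
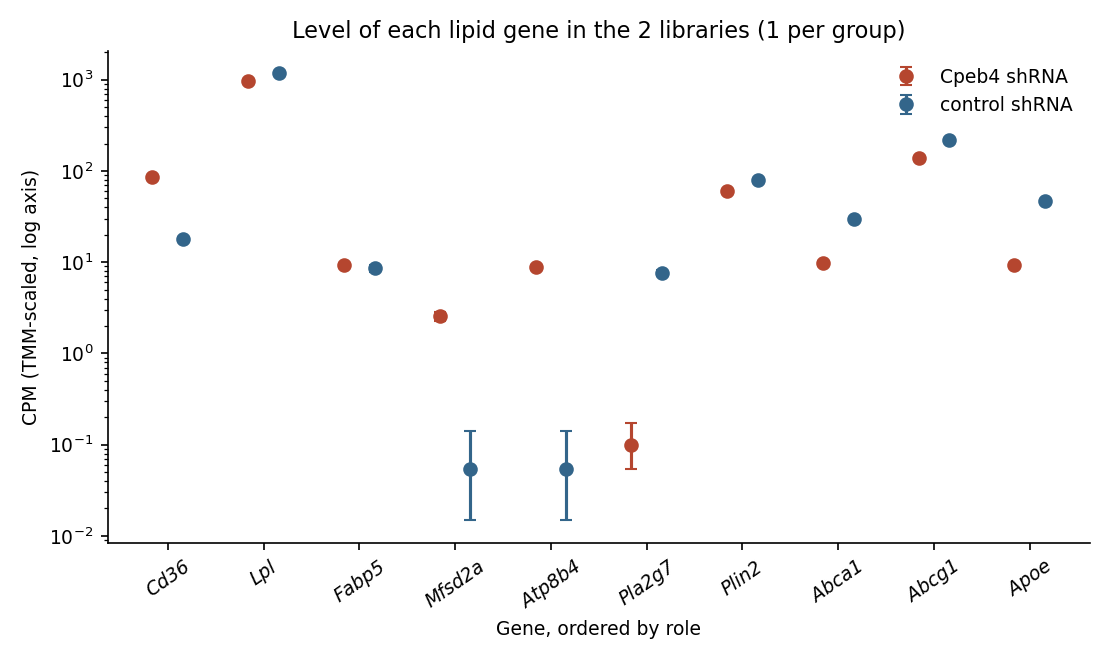
Level of each gene in CPM on a log axis, with the Cpeb4 shRNA library left and the control shRNA library right of each name, and bars for the 95% counting interval. Mfsd2a and Atp8b4 sit near 0.055 CPM in the control library, and Pla2g7 sits at 0.100 CPM in the Cpeb4 shRNA library.

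**Figure D2:**
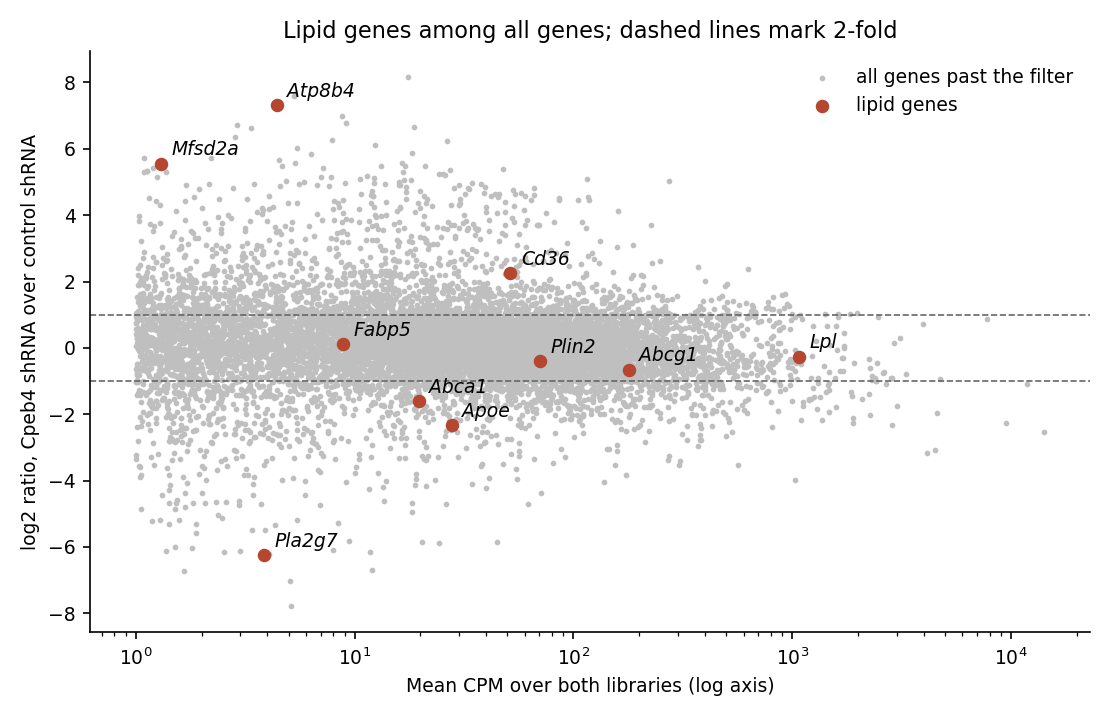
Ratio (log2) of Cpeb4 shRNA over control shRNA against mean CPM (log axis) for the 12086 genes past the filter in grey and the 10 lipid genes in red. Atp8b4 (7.33) and Mfsd2a (5.55) lie near the top edge, Pla2g7 (-6.24) near the bottom edge, and Lpl, the most abundant of the 10, near 0.

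Among the uptake genes the receptor gene Cd36 stood apart from the lipase and the binding protein. Cd36 (ENSMUSG00000002944; mm10 chromosome 5, 17781690 to 17888801, minus strand) had 11022 counts (85.2 CPM) with the Cpeb4 shRNA and 1312 counts (17.9 CPM) with the control shRNA. Its log2 ratio was 2.25 (2.17 to 2.33), a 4.76-fold higher level, and it ranked at percentile 96.0 of all genes past the filter. Lpl (chromosome 8, 68880491 to 68907448, plus strand) had 126401 counts (977 CPM) with the Cpeb4 shRNA and 86036 counts (1175 CPM) with the control shRNA. Its log2 ratio of -0.27 (-0.28 to -0.25) was -0.03 under total-count scaling, so its size depended on the scaling. Lpl alone made up 75.1% of the summed CPM of the 10 genes in the Cpeb4 shRNA library and 74.1% in the control library. Fabp5 (chromosome 3, 10012548 to 10016607, plus strand), which encodes the epidermal fatty acid binding protein found in macrophages, had 1197 counts (9.25 CPM) against 626 counts (8.55 CPM). Its ratio of 0.11 had a counting interval that held 0 (-0.03 to 0.26), and it was -0.29 under reference-gene scaling.

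Fabp5 is uncertain because near-identical copies can take its reads. The processed pseudogene Gm6166 matched 409 bases of the Fabp5 transcript at 98.3% identity and was listed with 771 counts in the Cpeb4 shRNA library and 370 in the control library. The sum of both rows was 1968 against 996 counts, a log2 ratio of 0.16 (0.05 to 0.27), so the difference stayed small with Gm6166 added. Another listed copy, Gm14328 (97.3% identity over 408 bases), had 40 against 3 counts and was not added. Of the other binding protein genes, Fabp7 passed the filter with 294 against 459 counts and a log2 ratio of -1.46. Fabp3 was below it, with 19 against 17 counts, a log2 ratio of -0.66 with an interval that held 0 (-1.68 to 0.37).

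Other receptors for lipid cargo lay on both sides of 0. A list of 31 genes of lipoprotein receptors, scavenger receptors and fatty acid uptake had 23 past the filter, of which 4 were at least 2-fold higher, 4 lower and 15 within 2-fold, with a median log2 ratio of -0.36. Without Cd36, Lpl, Fabp5 and Mfsd2a, the remaining 19 held 2 higher and 4 lower genes and had a median of -0.42. Scarb2, which encodes a lysosomal relative of CD36, had 41.4 CPM against 12.2 CPM (1.76), and the scavenger receptor gene Stab1 had 390 against 71 counts (1.64). At the other end stood Lrp10, a gene of the LDL receptor family, with 166 CPM against 543 CPM (-1.71). The scavenger receptor genes Scarb1 (114 CPM against 155 CPM, -0.45) and Msr1 (25.3 CPM against 32.1 CPM, -0.35) were within 2-fold.

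Both membrane phospholipid genes were close to silent in the control library. Mfsd2a (ENSMUSG00000028655; chromosome 4, 122946850 to 122961188, minus strand) encodes a sodium-dependent carrier of lysophosphatidylcholine, known from the blood-brain barrier for the uptake of docosahexaenoic acid. It had 332 counts (2.57 CPM) in the Cpeb4 shRNA library and 4 counts (0.055 CPM, exact Poisson interval 0.015 to 0.14 CPM) in the control library, a log2 ratio of 5.55 (4.18 to 7.44). Atp8b4 (ENSMUSG00000060131; chromosome 2, 126320973 to 126500674, minus strand) encodes a P4-type ATPase, a family whose members flip phospholipids from the outer to the inner leaflet. It had 1134 counts (8.76 CPM) against 4 counts (0.055 CPM), a ratio of 7.33 (5.97 to 9.20), at percentile 99.98 of the genes past the filter. Both control values were 4, and 4 was a frequent value there: 585 genes had 4 control counts, against 444 with 3 and 286 with 5. The size of both ratios is therefore uncertain; with 2 CPM added to every level they were 1.15 and 2.39, and a mean of at least 10 CPM leaves both out.

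The other flippase genes past the filter were all within 2-fold. In a list of 25 genes of P4-type flippases, their partners, scramblases and lysolipid carriers, 17 passed the filter, 4 higher, 3 lower and 10 within 2-fold. The median was 0.23, and -0.17 under reference-gene scaling. Without Mfsd2a and Atp8b4 it was 0.08. The paralog Atp8b2 had 47.4 CPM against 36.3 CPM (0.39), and Atp11a had 42.0 CPM against 41.4 CPM (0.02). Tmem30a, which encodes the partner subunit that most flippases need, had 96.9 CPM against 156 CPM (-0.69). The scramblase genes did not move one way. Plscr1 and Ano6 were higher, at 10.3 CPM against 3.20 CPM (1.69) and 158 CPM against 69.1 CPM (1.20). Xkr8 was lower, at 13.1 CPM against 28.0 CPM (-1.10), and Plscr3 was within 2-fold (0.58). The sphingosine-1-phosphate exporter genes Spns2 (298 against 614 counts, -1.86) and Mfsd2b (108 against 137 counts, -1.16) were the lowest of the list, so the lysolipid carrier Mfsd2a and its relative Mfsd2b lay on opposite sides of 0.

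The gene next to Mfsd2a was likewise high with the Cpeb4 shRNA and near 0 in the control library. Mycl, which encodes a transcription factor of the MYC family, is the nearest protein-coding neighbour on the side of the Mfsd2a start, 34464 bases away. It had 4547 counts in the Cpeb4 shRNA library and 9 in the control library (8.16, 7.23 to 9.29). On the other side, 60794 bases away, the actin regulator gene Cap1 had 58021 against 81140 counts (-1.30). For Atp8b4 the nearest listed neighbours among 2 on each side were Dtwd1 (1121 against 410 counts, 0.63) and Hdc (4 against 9 counts). These neighbours were singled out after their values were seen.

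Pla2g7 was nearly absent from the Cpeb4 shRNA library. Pla2g7 (ENSMUSG00000023913; chromosome 17, 43568098 to 43612201, plus strand) encodes the secreted lipoprotein-associated phospholipase A2, which hydrolyses platelet-activating factor and oxidised phospholipids. It had 13 counts (0.100 CPM) in the Cpeb4 shRNA library and 558 counts (7.62 CPM) in the control library, a log2 ratio of -6.24 (-7.16 to -5.46), at percentile 0.041 of the genes past the filter. With 2 CPM added to every level the ratio was -2.20. Another annotated gene, 1700071M16Rik, overlaps it, and without a stated strand setting the reads of such partners cannot be told apart. Among 23 genes of phospholipase A2 and platelet-activating factor enzymes, 15 passed the filter, 2 higher, 4 lower and 9 within 2-fold (median -0.31, and -0.26 for the 14 without Pla2g7). The secreted enzyme gene Pla2g2d was next lowest, with 77 against 377 counts (-3.11), followed by Pla2g2e (140 against 191 counts, -1.27) and Pla2g5 (680 against 834 counts, -1.12). The opposite held for Pla2g4a, the cytosolic enzyme that frees arachidonic acid, with 105 CPM against 31.5 CPM (1.73). Lpcat2, which makes platelet-activating factor, had 683 against 93 counts (2.06), while Ptafr, the gene of the platelet-activating factor receptor, was at -0.22 and the intracellular hydrolase genes Pafah1b1, Pafah1b2, Pafah1b3 and Pafah2 lay between -0.11 and 0.16. Lpcat1, whose product can also acetylate the precursor of platelet-activating factor, had 276 CPM against 507 CPM (-0.88), so both synthesis genes lay on opposite sides of 0.

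Plin2, the droplet coat gene, differed little. Plin2 (chromosome 4, 86648386 to 86670060, minus strand) had 7823 counts (60.5 CPM) in the Cpeb4 shRNA library and 5883 counts (80.3 CPM) in the control library, a log2 ratio of -0.41 (-0.46 to -0.36). It was -0.18 under total-count scaling and -0.82 under reference-gene scaling. Plin3, the other perilipin gene past the filter, had 39.9 CPM against 103 CPM (-1.37). Plin5, below the filter, had 8 against 6 counts, a log2 ratio of -0.41 with an interval that held 0 (-2.12 to 1.40). Of 35 genes of droplet coat, ester storage and lipolysis 21 passed the filter, 1 higher, 5 lower and 15 within 2-fold, with a median of -0.41, the value of Plin2 itself. Soat2 and Soat1, which encode the enzymes that esterify cholesterol for storage, had 202 against 546 counts (-2.26) and 97.7 CPM against 168 CPM (-0.78). Bscl2, which encodes the droplet assembly factor seipin, had 9.03 CPM against 25.6 CPM (-1.50). The highest was Cav1, the caveolin gene, with 425 against 8 counts (4.91), followed by the phosphatidate phosphatase gene Lpin2 (0.49) within 2-fold.

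Of the 3 efflux genes among the 10, Apoe and Abca1 were at least 2-fold lower with the Cpeb4 shRNA and Abcg1 was within 2-fold. Apoe (ENSMUSG00000002985; chromosome 7, 19696109 to 19699188, minus strand) had 1199 counts (9.27 CPM) in the Cpeb4 shRNA library and 3410 counts (46.6 CPM) in the control library, a log2 ratio of -2.33 (-2.43 to -2.23) and a 5.02-fold lower level. Abca1 (chromosome 4, 53030787 to 53159895, minus strand) had 1257 counts (9.71 CPM) against 2168 counts (29.6 CPM), a ratio of -1.61 (-1.71 to -1.51). Abcg1 (chromosome 17, 31057675 to 31117988, plus strand; it contains the annotated rRNA gene Gm25447) had 18002 counts (139 CPM) against 16115 counts (220 CPM). Its ratio of -0.66 (-0.69 to -0.63) was within 2-fold with TMM and past it, at -1.07, under reference-gene scaling. All 3 were lower with the Cpeb4 shRNA under each of the 4 other scalings. Those scalings move every log2 ratio alike, upward by 0.23 at most, so none of these signs could change. Of the other transporter genes of the ABCA and ABCG families past the filter, Abca2 was at -0.72, Abca3 at -0.13 and Abca7 at 0.07.

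The genes of cholesterol efflux and LXR response past the filter lay on both sides of 0, 14 below it and 8 above. The 14 include Apoe, Abca1 and Abcg1, which were chosen by these same ratios. Over all 12086 genes past the filter, 6345 lay above 0. The split within the list depends on the scaling, since ratios near 0, such as that of Srebf1, can change sign with it. Of 26 listed, 22 passed the filter, 2 higher, 6 lower and 14 within 2-fold. The median was -0.37, and -0.18 for the 19 without Abca1, Abcg1 and Apoe. Lpcat3 (-1.78), Scd2 (-0.92), Scd1 (-0.67) and Mylip (-0.49) were among the genes below 0. Apoc2, an apolipoprotein gene of the Apoe cluster, had 73 against 165 counts (-2.00). Pltp, the phospholipid transfer protein gene and also an LXR target, was 2.76-fold higher on the linear scale, with 237 CPM against 85.9 CPM (1.46). Osbpl1a, an oxysterol-binding protein gene, had 756 against 35 counts (3.61). Among the receptors, Nr1h3 (LXR alpha) had 6.24 CPM against 6.23 CPM (0.00) and Nr1h2 (LXR beta) 52.6 CPM against 85.1 CPM (-0.69). Of their partner genes, Rxrb had 16928 counts against 7174 counts (0.42), while the less abundant Rxra was the lowest of the list, with 177 counts (1.37 CPM) against 1366 counts (18.7 CPM), a ratio of -3.77 (-4.00 to -3.54). Srebf1, an LXR target and a regulator of fatty acid synthesis, had 157 CPM against 163 CPM (-0.05). Among the fatty acid receptors, Ppard was at -1.44, with 13.4 CPM against 36.3 CPM, and Pparg is not analysed here.

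**Figure D3:**
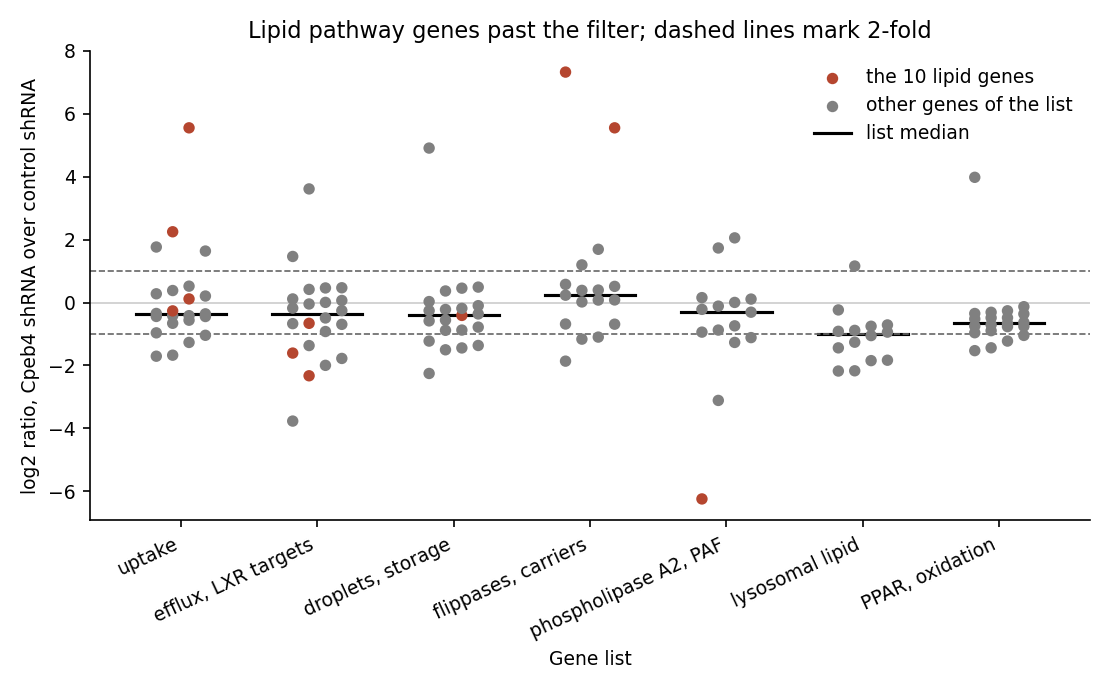
Log2 ratio of Cpeb4 shRNA over control shRNA for the genes past the filter in 7 lipid gene lists, with the 10 genes in red, other genes in grey and list medians as black bars. List medians lie between -0.996 for lysosomal lipid genes and 0.23 for flippases and carriers, and Atp8b4, Mfsd2a and Pla2g7 lie far outside most genes of their lists.

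Scaled by exon length, Lpl led in both libraries. In CPM per kilobase of exon, the Cpeb4 shRNA library was ordered Lpl (93.2), Cd36 (23.7), Abcg1 (19.1), Plin2 (17.2), Apoe (4.33), Fabp5 (2.59), Atp8b4 (1.32), Mfsd2a (1.14), Abca1 (0.937) and Pla2g7 (0.035). In the control library the order was Lpl (112), Abcg1 (30.1), Plin2 (22.9), Apoe (21.8), Cd36 (4.99), Abca1 (2.86), Pla2g7 (2.62), Fabp5 (2.40), Mfsd2a (0.024) and Atp8b4 (0.0082). Cd36 thus had rank 2 with the Cpeb4 shRNA and rank 5 with the control shRNA. Exon length here is the union of all annotated exons. With the length of 1 transcript per gene, an alternative chosen after seeing the data, those ranks were 3 and 6, and Fabp5 was at 9.37 against 8.66. Counting intervals of neighbours in the order overlapped for Atp8b4 and Mfsd2a with the Cpeb4 shRNA. With the control shRNA they overlapped for Plin2 and Apoe, for Abca1 and Pla2g7, for Pla2g7 and Fabp5, and for Mfsd2a and Atp8b4. Variation between cultures is not part of these intervals.

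Because CPEB4 binds the CPE, the 3′ UTR of each gene was searched on the sense strand for TTTTAT and TTTTAAT, the DNA letters of this motif, in the GENCODE M21 transcript with the longest coding sequence. Of the 10 genes 7 held at least 1 match and together they held 20, while Apoe, Plin2 and Pla2g7 held 0. Over all 10493 genes past the filter with an annotated 3′ UTR, 59.1% held at least 1. Long UTRs hold more: the share was 25.7% below 500 bases and 89.0% at 1500 bases or more. Of the lipid genes, 2 of 5 below 500 bases (Fabp5 and Mfsd2a) and 5 of 5 at 1500 bases or more held a match. At least 1 match was held by all 3 higher genes, 1 of the 3 lower genes (Abca1) and 3 of the 4 within 2-fold. The share by direction over all genes was not taken. Since these ratios chose the genes, nothing is read from that split. Apoe and Pla2g7, the other lower genes, have short UTRs of 271 and 222 bases. A match is a run of letters, and binding of CPEB4 was not measured. The site nearest the annotated end is shown for each gene that has 1, from the GENCODE M21 transcripts on GRCm38, 5′ to 3′ on the mRNA strand, with the motif in capitals, its distance to the annotated end and the position of the printed bases.
Cd36 (515 bases from the end, chr5:17782197-17782218, minus strand): tgttataaTTTTATagcagcag
Lpl (7 bases from the end, chr8:68906914-68906934, plus strand): tgagaacaTTTTATcatgata
Fabp5 (21 bases from the end, chr3:10016573-10016594, plus strand): tacataaaTTTTATagaataaa
Mfsd2a (106 bases from the end, chr4:122946948-122946969, minus strand): tagaaacgTTTTATacagagac
Atp8b4 (49 bases from the end, chr2:126321014-126321035, minus strand): tgtttatgTTTTATaacaattt
Abca1 (1015 bases from the end, chr4:53031794-53031816, minus strand): aatccttgTTTTAATtactcaga
Abcg1 (11 bases from the end, chr17:31117964-31117985, plus strand): ataaaataTTTTATataaaaat

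**Figure D4:**
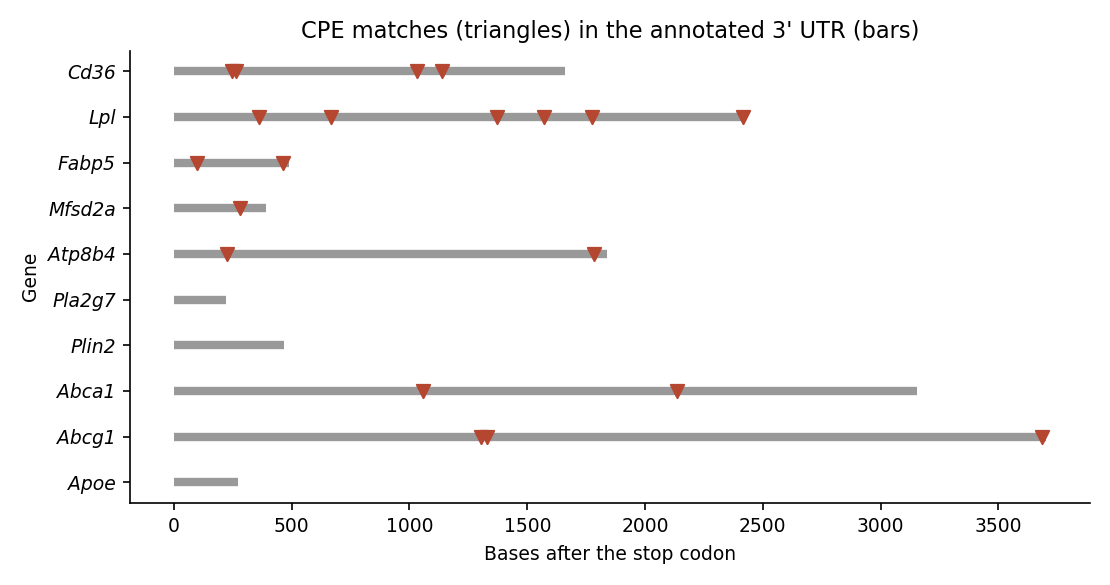
Matches to TTTTAT or TTTTAAT (triangles) along the annotated 3′ UTR (grey bars), in bases after the stop codon, for the 10 genes. Lpl has 6 matches and Cd36 has 4, and Apoe, Plin2 and Pla2g7 have 0.

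Promoter windows of 300 bases (250 before to 50 after a RefSeq start, GRCm38.p6) were given for 7 of the 10 genes; those of Lpl, Abcg1 and Fabp5 are not analysed here. They were searched on both strands for the nuclear receptor motif AGGTCA, alone or as a direct repeat with up to 2 mismatches over both copies, spaced by 4 bases (DR4, the LXR type) or by 1 base (DR1, the PPAR type), and for CACGTG and TATAAA. No window of the 7 genes held a DR4 (0 of 9 windows, as Apoe has 3), beside 3.02% of all 32851 windows. This depended on the limit: with up to 3 mismatches, chosen after seeing the data, the windows of Abca1 and Atp8b4 held a DR4, beside 21.9% of all. That of Abca1 begins at position -67 from the start, and its promoter is known for an LXR element. A DR1 was found for Cd36 and Plin2, beside 3.86% of all windows. CACGTG was found for Plin2 and Abca1 (7.15% of all), TATAAA for Abca1 and for 1 of the Apoe windows (13.6%), and AGGTCA for Cd36, Mfsd2a and Plin2 (16.3%). The AGGTCA of Plin2 lies inside its DR1. Thus the windows of Cd36, which was higher, and Plin2, which was within 2-fold, hold a PPAR-type repeat. The windows of Cd36, Atp8b4 and Pla2g7 and some of those of Apoe lie inside the gene spans given above, not at their outer end. Which starts these cells use was not tested. These matches are descriptions and no binding was measured. The windows of Cd36 (chr5:17835847-17836146, minus strand), Plin2 (chr4:86670010-86670309, minus strand) and Abca1 (chr4:53159846-53160145, minus strand) are printed 5′ to 3′ on the gene strand, because they hold these repeats or stand for an efflux gene, with every match named above in capitals.
Cd36: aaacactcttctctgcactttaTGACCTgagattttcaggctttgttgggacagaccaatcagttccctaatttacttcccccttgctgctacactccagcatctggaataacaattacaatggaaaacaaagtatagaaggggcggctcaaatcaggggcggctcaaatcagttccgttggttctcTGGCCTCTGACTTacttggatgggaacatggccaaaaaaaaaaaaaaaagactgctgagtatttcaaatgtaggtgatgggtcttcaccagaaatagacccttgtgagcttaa
Plin2: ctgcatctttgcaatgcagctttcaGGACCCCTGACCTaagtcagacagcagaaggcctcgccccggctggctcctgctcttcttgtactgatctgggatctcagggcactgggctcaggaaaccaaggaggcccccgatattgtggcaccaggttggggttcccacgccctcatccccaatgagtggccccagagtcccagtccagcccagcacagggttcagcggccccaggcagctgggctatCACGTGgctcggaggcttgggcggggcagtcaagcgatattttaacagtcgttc
Abca1: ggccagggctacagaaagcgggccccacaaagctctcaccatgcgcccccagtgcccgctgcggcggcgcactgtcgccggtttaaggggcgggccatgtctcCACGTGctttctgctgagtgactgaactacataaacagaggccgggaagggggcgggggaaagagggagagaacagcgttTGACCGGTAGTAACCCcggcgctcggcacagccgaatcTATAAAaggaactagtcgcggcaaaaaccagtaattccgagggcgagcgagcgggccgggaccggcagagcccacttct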

How the data were processed

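Per the submitters' processing notes, the authors aligned reads with HISAT2 to mm10. Its version, the tool that counted, the strand setting and the gene models: not given in the sources used here. Counts in the deposited table were whole numbers, 1 column per library, and every listed gene had at least 1 count in each. Genes at 4 counts were more frequent than at 3 or 5, so the values may be estimates. TMM scaling used all genes (edgeR 4.0.16, R 4.3.3), and a mean of at least 1 CPM was required. Exact 95% intervals were Clopper-Pearson for ratios, from a gene's count in 1 library as a share of both, and Poisson for levels; both cover counting error only, and PCR copies are not independent molecules. With 1 library per group no test was made, and a rule of size, at least 2-fold, was used. Coordinates, exon lengths and 3′ UTRs came from GENCODE M21 (GRCm38, the assembly mm10 names), which held 18935 of the 18987 identifiers. Transcript copies were sought with BLAST 2.17.0 at 90% identity over 200 bases. Promoter sequences are from RefSeq. The members and lists were chosen with earlier results of these data known. Named genes were the 10 members, Cpeb4, the 2 highest and 2 lowest of each list, family members past the filter, and 6 lipid transcription factors. Msr1, Scarb1, Soat1, Lipa, Npc1, Cpt1a, Fabp3, Plin5, Rxrb, Lpcat3, Scd1, Scd2, Mylip, Xkr8, Plscr3 and the neighbours were added after their values were seen. Scarb2, Stab1 and Apoc2 fall under the rule only if the members are left out of the ranking. Some genes that the rule names are not reported here. Alternatives were other scalings (DESeq2 1.42.0 size factors among them), pseudocounts, filters, size rules, thinning and protein-coding genes only. Ratios and intervals were tested on simulated counts.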

Additional observations from a re-analysis of the deposited data

How the results depend on the processing

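No paired analysis was possible because a single library stood for each group. Leaving out a replicate could not be done for the same reason. The 6 genes at least 2-fold apart kept their direction and stayed past 2-fold in the 48 values from alternatives that can change a ratio (scalings, pseudocounts, interval limits and thinning); these ratios chose the genes. Over the 10 genes, 78 of 80 such values kept their sign. The exceptions were those of Fabp5 under reference-gene scaling (-0.29) and at the limit of its counting interval (-0.03). Most of these signs could not change. A pseudocount cannot turn a sign, and the scalings move every log2 ratio alike, by at most 0.23 upward and -0.41 downward. Among the 10 genes such shifts could turn only Fabp5, so nothing is read from the count. Of 99 list medians whose value could change 98 kept their sign, all but that of the flippases and carriers under reference-gene scaling (-0.17). That list alone had a median that the scaling shifts could turn, so nothing is read from this count either. Under a minimum mean of 10 CPM, 1 of the 10 genes was higher (Cd36) and 2 were lower (Apoe and Abca1), since that filter drops Mfsd2a, Atp8b4, Pla2g7 and Fabp5. Past 4-fold 3 were higher and 2 lower. Cpeb4 was at -1.49 with total-count, -1.76 with upper-quartile and -2.13 with reference-gene scaling. Over all genes, the higher and lower genes numbered 1057 and 2635 under reference-gene scaling. They were 3217 and 2930 if every gene was kept, 1025 and 907 under the minimum of 10 CPM, 3191 and 2674 under a 1.5-fold rule and 582 and 426 under a 4-fold rule, which follows from how those settings are built. Depth limits the low genes: 3 counts correspond to 0.0232 CPM in the Cpeb4 shRNA library and 0.041 CPM in the control library.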

Other observations

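Genes of lysosomal lipid handling and of fatty acid oxidation had list medians below 0, as did every other lipid list but that of the flippases and carriers. The 124 genes past the filter in all 10 lists, without the 10 members, had a median of -0.49, with 11 higher and 31 lower. Over all genes past the filter 14.6% were higher and 11.8% lower. Of 15 genes of lysosomal lipid handling 14 passed the filter, 1 higher, 7 lower and 6 within 2-fold, with a median log2 ratio of -0.996 beside 0.05 over all genes. Under total-count scaling 6 were lower (median -0.76), and under reference-gene scaling 12 were lower (median -1.40). The ganglioside hydrolase gene Hexa had 496 CPM against 2242 CPM in the control library (-2.18), and Gla, the alpha-galactosidase A gene, had 14.9 CPM against 67.1 CPM (-2.17). Lamp2 was within 2-fold (-0.24), and Lamp1, a lysosomal membrane protein gene, was the highest, with 271 CPM against 121 CPM (1.16). Lipa, the acid lipase gene, and Npc1, the cholesterol exporter gene of the lysosome, were at -0.75 and -0.92.

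Of 27 genes of the fatty acid receptors, their coactivators and fatty acid oxidation 21 passed, 1 higher, 4 lower and 16 within 2-fold, with a median of -0.67. Over all genes past the filter 14.6% were higher and 11.8% lower. Under total-count scaling 2 genes of this list were lower and its median was -0.43. Under reference-gene scaling 12 were lower and the median was -1.07. Ppard was at -1.44, and the electron transfer flavoprotein gene Etfb was at -0.13. Cpt1b, which encodes the muscle form of the mitochondrial carnitine palmitoyltransferase, was the highest, with 251 against 9 counts (3.98, a gene that passed the filter through the Cpeb4 shRNA library alone), beside -0.96 for the liver form Cpt1a.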
